A study of Homo sapiens with 6 samples.

Results

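The genes described here are NQO1, ALDH3A1, AKR1C2 and GSTM3, 4 genes of oxidant and drug detoxification, in RNA sequencing of human cervical cancer cell lines. They were picked by name, with their earlier results in these libraries known: ALDH3A1 and NQO1 as low, and GSTM3 as high, after p63 knockdown. Every row with a member's name was used. In ME-180 there were 9 such transcripts of 15189 (4 of 8798 genes), and in SiHa 9 of 16600 (4 of 9490 genes).

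The series holds 6 samples, of which the 4 RNA libraries were used. The first was ME-180, a squamous cervical carcinoma line, labelled knockdown (shp63 in the table), and it was set against an ME-180 control labelled plko, the name of a family of hairpin vectors. The other pair was SiHa, also a cervical carcinoma line, with p63 overexpression, set against SiHa with the vector. All libraries carry the same passage range, each group is 1 library, and the labels used here give no hairpin sequence and no p63 isoform, and do not say whether the cells were a clone or a pool. With no replicates, each difference is between 2 libraries, and the 95% intervals cover counting error only.

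The detoxification system of cells disposes of reactive chemicals in steps. Reductases and dehydrogenases first convert quinones, aldehydes and ketones, and transferases then attach glutathione, glucuronic acid or sulfate so that transporters can export the product. NRF2, encoded by NFE2L2, is the transcription factor that switches on many of these genes through antioxidant response elements, and KEAP1 with CUL3 marks it for degradation until oxidants or electrophiles block them. The aryl hydrocarbon receptor, AHR, works with ARNT at xenobiotic response elements and shares some targets with NRF2. NQO1 reduces quinones in a single step that avoids reactive semiquinones, and it is a classical target of both factors. ALDH3A1 oxidises aldehydes from lipid peroxidation and is abundant in the cornea. AKR1C2 reduces ketones, including those of steroids such as dihydrotestosterone. GSTM3 is a mu-class glutathione transferase.

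Each promoter below, 250 bases before to 50 after the gene start in RefSeq, is shown because the genes moved in opposite directions in ME-180. The windows are of 3 of the 4 genes, matched by symbol, and all lie on the minus strand of GRCh38.p14. They are NQO1 at chr16:69726511-69726810, AKR1C2 at chr10:5003808-5004107 and GSTM3 at chr1:109740989-109741288. Capitals mark the xenobiotic response element core GCGTG or its reverse complement.

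NQO1: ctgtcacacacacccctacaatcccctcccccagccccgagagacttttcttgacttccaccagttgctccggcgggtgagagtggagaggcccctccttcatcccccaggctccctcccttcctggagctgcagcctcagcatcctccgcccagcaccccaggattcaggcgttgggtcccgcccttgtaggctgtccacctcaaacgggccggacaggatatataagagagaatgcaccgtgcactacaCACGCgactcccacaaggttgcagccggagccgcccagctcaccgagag
AKR1C2: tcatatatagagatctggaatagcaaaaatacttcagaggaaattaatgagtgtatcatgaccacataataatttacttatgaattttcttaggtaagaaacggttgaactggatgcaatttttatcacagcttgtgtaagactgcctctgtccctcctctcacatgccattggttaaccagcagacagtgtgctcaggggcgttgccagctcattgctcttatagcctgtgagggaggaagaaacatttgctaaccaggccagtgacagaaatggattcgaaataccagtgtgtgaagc
GSTM3: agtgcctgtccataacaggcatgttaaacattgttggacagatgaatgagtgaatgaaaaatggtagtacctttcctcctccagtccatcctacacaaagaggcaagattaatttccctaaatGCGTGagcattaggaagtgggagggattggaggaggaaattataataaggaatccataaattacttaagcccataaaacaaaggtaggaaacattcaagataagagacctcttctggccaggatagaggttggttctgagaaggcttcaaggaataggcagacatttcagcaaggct

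The GCGTG core occurred once in the GSTM3 window, starting 127 bases before the gene start, and once in the NQO1 window, on the reverse strand at base 2 after it. It had no match in the AKR1C2 window, and 36.5% of 35116 RefSeq promoters hold it on either strand. The antioxidant response element core TGACNNNGC matched none of the 3 windows and 13.3% of all promoters, and the AP-1 site TGANTCA matched none of them and 7.71% of all. A permissive core of the site bound by the p53 family, of which p63 is a member, is CNNG repeated after 6 unspecified bases. It matched NQO1 at base 26 after the start, and 74% of all promoters, and had no match in the AKR1C2 and GSTM3 windows. These are letters in a short window and show no site in use, and sequence outside the windows was not searched. The windows differed in base composition: NQO1 had 62.7% G and C with 14 CpG dinucleotides, AKR1C2 41.3% with 3 and GSTM3 41.3% with 1, against medians of 58.7% and 14 over all promoters. The neighbouring mu-class genes GSTM1, GSTM2 and GSTM4 had 22, 17 and 21 CpG dinucleotides.

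The libraries themselves differed widely in ME-180. The tables hold 10046579 counts for the library labelled knockdown, 10804272 for its control, 13690639 for SiHa with p63 and 14207637 for the SiHa vector, and these totals are of the listed rows, not full sequencing depths. TP63 transcript NM_001114980.1 had 6 counts in the library labelled knockdown against 5619 in the control, and 179 with overexpression against 7 with the vector. Over 7627 genes in both tables, Pearson's r of log2(CPM + 1), CPM being counts scaled to a table total of 1000000, was 0.81 between the library labelled knockdown and its own control. The same r reached 0.89 when the knockdown was paired with the SiHa vector library, and 0.993 within the SiHa pair. The ME-180 control paired with the SiHa vector library gave 0.86, also above the value within the ME-180 pair. Of 12 epithelial markers, 7 had a row in ME-180 and all 7 were lower in the library labelled knockdown, with a summed level of 159 CPM against 70768 CPM in the control and with ELF3 and SPINT1 at 0. Of the mesenchymal and fibroblast markers with at least 1 CPM, 5 of 7 were higher and 1 lower, and of the neural and neuroendocrine markers 3 of 5 were higher and 0 lower (1, TUBB3, under TMM scaling). Of all genes with at least 1 CPM in an ME-180 library, 28.2% were called higher and 20.6% lower, by the rule given below. Summed levels were 166 CPM against 158 CPM in the control for the mesenchymal list, and 164 CPM against 36.5 CPM for the neural list. Immune markers summed to 14.5 CPM against 59.4 CPM. These differences stand beside every ME-180 result below, and their part in those results was not tested. Whether the cells of the library labelled knockdown were ME-180 cells was not tested either, and each ME-180 fold rests on that label. In bulk RNA, fewer cells with a transcript and less of it per cell cannot be told apart.

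Calls of higher or lower needed a 2-fold ratio of CPM + 1 or more and a level of 1 CPM or more in either library of the pair. In ME-180, 28.2% of 6783 such genes were called higher and 20.6% lower. Scaling by trimmed means (TMM), which shifts a log2 ratio by -0.28 before the pseudocount and by less where a level is low, changed the share of higher genes among those called to 47.4%, against 57.8% with table totals. In SiHa, 0.572% of 6996 genes were called higher and 0.743% lower. The 4 genes were chosen from the ME-180 contrast, so its calls are described here and not tested.

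**Figure D1:**
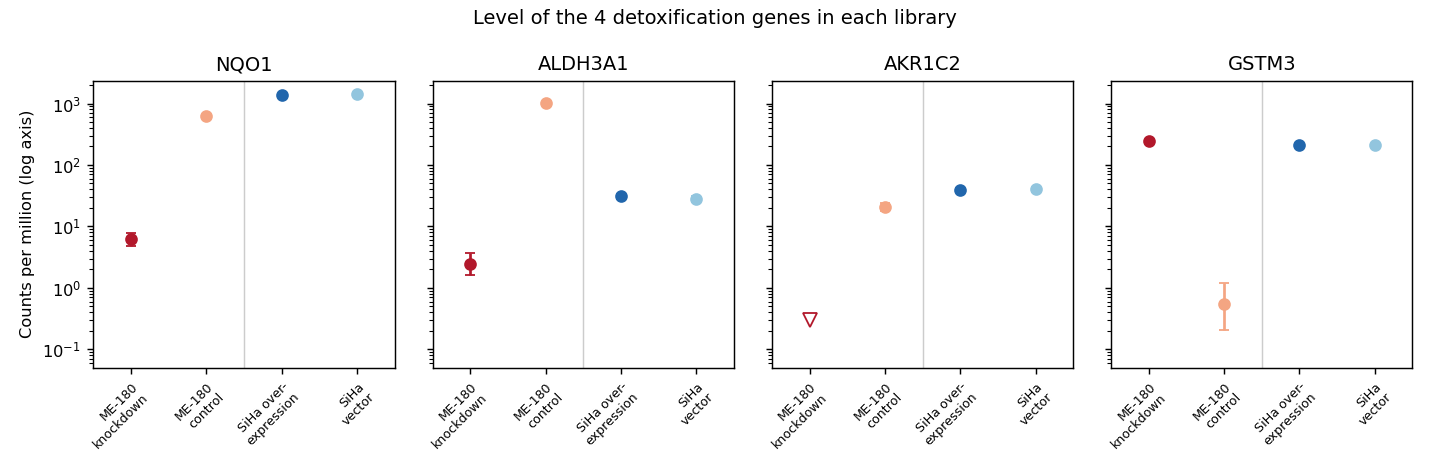
Level of each gene in CPM (log axis) in the 4 libraries, with bars for the 95% Poisson interval of the count and an open triangle for 0 counts, drawn at 3 counts. NQO1, ALDH3A1 and AKR1C2 are lowest in the ME-180 library labelled knockdown, GSTM3 is lowest in the ME-180 control, and the 2 SiHa libraries lie close together for each gene.

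NQO1 was almost lost from the library labelled knockdown. Its main transcript NM_000903.2 had 62 counts there and 6852 in the ME-180 control, or 6.17 CPM against 634 CPM. This is a 103-fold lower level, with a counting interval of 80.1 to 134. The shorter transcripts gave nearly the same ratio, NM_001025433.1 with 38 counts against 4744 and NM_001025434.1 with 44 against 4803. These transcripts overlap, a read can enter several rows, and the 3 ratios are therefore not separate measurements. In SiHa, NQO1 was well expressed with either construct. It had 19109 counts with p63 overexpression and 19968 with the vector, 1396 CPM against 1405 CPM, a ratio of 0.993 (0.974 to 1.01).

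ALDH3A1 was likewise almost lost in ME-180. Transcript NM_000691.4 had 25 counts in the library labelled knockdown and 10815 in the control, 2.49 CPM against 1001 CPM, which is 402-fold lower (272 to 622). The other transcripts had 16 counts against 9558 and 24 against 9586. In SiHa both libraries lay between the ME-180 libraries, at 30.7 CPM with p63 and 27.9 CPM with the vector for NM_001135168.1, a ratio of 1.10 (0.957 to 1.27). For NM_000691.4 the SiHa counts were 423 with p63 and 364 with the vector. That ratio of 1.21 (1.05 to 1.39) lay above 1 beyond counting error, but below the 2-fold rule.

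AKR1C2 had few counts in the ME-180 control and none in the library labelled knockdown. NM_001354.5 had 0 counts there and 224 in the control (20.7 CPM). With the 0 set to a floor of 3 counts, 0.299 CPM, it was 69.4-fold lower, and the lower 95% limit of the fold was 56.0. The second transcript, NM_001135241.2, had 0 against 32 counts. In SiHa NM_001354.5 had 536 counts with p63 and 571 with the vector, 39.2 CPM against 40.2 CPM, a ratio of 0.974 (0.864 to 1.10). AKR1C2 has near-identical copies in AKR1C1 and AKR1C3, and the assignment of reads among them is uncertain.

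GSTM3 moved the other way. Its single transcript NM_000849.4 had 2457 counts in the library labelled knockdown and 6 in the control, 245 CPM against 0.555 CPM. The ratio was 440.4 with an interval of 202 to 1201, wide because the control rests on 6 counts. GSTM3 thereby held rank 3 from the top among the 6783 genes by log2 ratio, whereas ALDH3A1, NQO1 and AKR1C2 held ranks 21, 55 and 180 from the bottom. In SiHa GSTM3 had 2872 counts with p63 and 2951 with the vector, 209.8 CPM against 208 CPM, a ratio of 1.01 (0.959 to 1.06).

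Thus 3 of the genes were called lower (20.6% of all genes were) and GSTM3 higher (28.2% of all genes) in ME-180, and 0 of the 4 were called in SiHa (0.572% of all genes higher, 0.743% lower). On the log2(CPM + 1) scale the ME-180 ratios were -8.17 for ALDH3A1, -6.47 for NQO1, -4.44 for AKR1C2 and 7.30 for GSTM3, against a median of 0.28 over the 6783 genes. The pseudocount of 1 shrinks the ratio of AKR1C2 most, since its counts are low. The authors' deposited table gives log2 fold changes of -8.96, -7.00, -10.92 and 8.43 for the same transcripts in the same order. In SiHa all 4 log2 ratios lay between -0.04 and 0.13, where the median of 6996 genes was -0.05. The TP63 RNA level reached there was small beside ME-180, with 13.1 CPM of NM_001114980.1 against 520 CPM in the ME-180 control. These 2 levels come from tables of different content. Of 10 epithelial markers at 1 CPM or more in SiHa, 3 were called higher and 0 lower. Among them KRT14 had a ratio of 17.7 (11.6 to 28.2) and KRT5 3.07 (2.65 to 3.56). Whether the p63 level bears on the 4 genes was not tested.

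**Figure D2:**
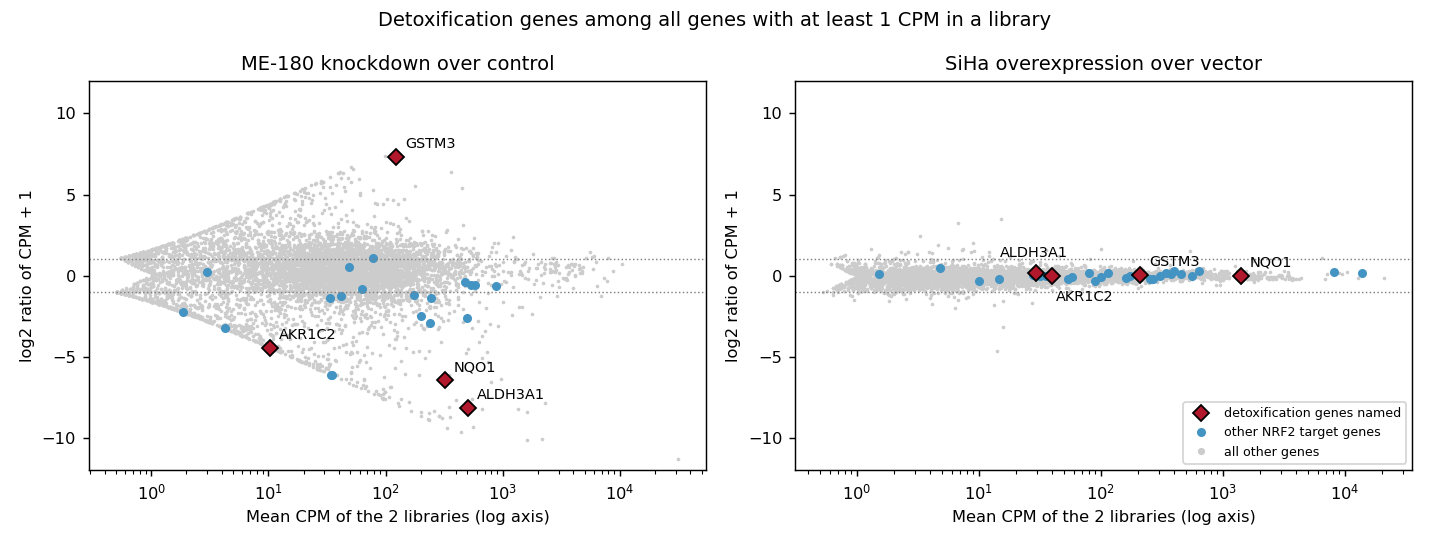
log2 ratio of CPM + 1 against the mean CPM of the 2 libraries (log axis) for genes with at least 1 CPM in a library, in ME-180 (left) and SiHa (right), with dotted lines at 2-fold. In ME-180 GSTM3 stands near the top at 7.30 and ALDH3A1 near the bottom at -8.17, while all 4 genes lie near 0 in SiHa.

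Levels set across the lines come from tables of different content, so the ratios that follow are also given over the 13206 transcripts found in both tables. GSTM3 in the library labelled knockdown was at a level like that of SiHa, 245 CPM against 208 CPM in the SiHa vector library, a ratio of 1.18. This ratio turned to 0.817 over the shared transcripts, so its direction is not settled. NQO1 in the library labelled knockdown was 228-fold lower than in the SiHa vector library (178 to 297), and 328-fold lower over the shared transcripts. ALDH3A1, by its transcript NM_000691.4, was 10.3-fold lower (6.86 to 16.1), and 14.8-fold lower over the shared transcripts. The ME-180 control had 39.1 times the SiHa vector level of ALDH3A1, and 27.2 times over the shared transcripts. Its NQO1 level was 0.451 of that in the SiHa vector library, and 0.314 over the shared transcripts. The order of levels within a gene was thus overexpression and vector above control above knockdown for NQO1 and AKR1C2. For ALDH3A1 it was control above both SiHa libraries above knockdown. For GSTM3 the knockdown and SiHa libraries lay far above the control. Within SiHa, the ratio of the transcript that stands for each gene had an interval that included 1 in all 4 genes. For ALDH3A1 that transcript was NM_001135168.1. The interval of NM_000691.4, used here between the lines, was 1.05 to 1.39 and did not include 1.

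Among genes with rows in both tables, the profiles closest to each gene were found by Euclidean distance of log2(CPM + 1) over the 4 libraries. For NQO1 these were the keratin gene KRT8 (distance 2.42), the protease inhibitor gene SPINT2 (2.72) and the annexin gene ANXA1 (3.61). KRT8 had 21.9 CPM in the library labelled knockdown, 1906 in the ME-180 control, 2275 with p63 in SiHa and 1241 with the vector. For ALDH3A1 they were ANXA8 (1.62), TGFBI (1.73) and IGFBP3 (1.96), each under 1 CPM in the library labelled knockdown and between 574 and 714 CPM in the control. ANXA8 has near-identical copies. For AKR1C2 they were HENMT1 (0.564), DPYD (0.666), which breaks down pyrimidines, and ETS1 (0.872), a transcription factor. The genes closest to GSTM3 were RIMS4 (2.53), ANXA6 (2.73) and ADRA2C (2.90), an adrenergic receptor. RIMS4 had 118 CPM in the library labelled knockdown, 0.926 in the control, 64.9 with p63 in SiHa and 70.5 with the vector.

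Most measured genes beside GSTM3 were also called higher in ME-180. In the order of GRCh38.p14, the mu-class genes GSTM4, GSTM2, GSTM1, GSTM5 and GSTM3 follow one another on chromosome 1. All 4 measured members of the family were called higher in ME-180, while GSTM5 has no row. Without GSTM3, picked as known to be high, these were 3 of 3, where 28.2% of all genes were called higher. GSTM2 had 836 counts in the library labelled knockdown and 3 in the control, 83.2 CPM against 0.278 CPM, a ratio of 299.7 (102 to 1456). GSTM1 had 183 counts against 3, a ratio of 65.6 (22.1 to 321). GSTM4, which the control already expressed, had 347 counts against 113, a ratio of 3.30 (2.66 to 4.12). The mu-class genes are close in sequence, so reads may be shared among GSTM1, GSTM2 and GSTM4.

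Beyond the family, the 10 protein-coding genes nearest in order to GSTM3, 5 on either side, included 7 with a row in ME-180, and 6 of these were called higher and 0 lower, where 28.2% of all genes were called higher. These 10 were chosen by position after the values of the family had been seen. Outside the mu class, AMPD2, an AMP deaminase, had a log2 ratio of 2.42 and CSF1, a macrophage growth factor, 1.03, while AHCYL1 was at 0.95. The call of CSF1 was lost under TMM scaling (0.77). Beside AKR1C2, its relatives AKR1E2 and AKR1C3 had 0 counts in the library labelled knockdown and 65 and 40 in the control, and PITRM1, a mitochondrial protease, was higher at 1.94. Beside ALDH3A1, 3 of 6 neighbours with a row were lower, where 20.6% of all genes were. They were ALDH3A2, its paralog for fatty aldehydes (1312 counts against 5015), SLC47A2, an organic cation exporter (0 against 427), and LGALS9B (0 against 138), a galectin gene with close copies. Beside NQO1, 0 of 6 neighbours with a row were lower and 1, NIP7, was higher at 1.41; NFAT5 and WWP2 were at 0.02 and 0.09. In SiHa 0 neighbours of any of the 4 genes were called, where 0.572% of all genes were higher and 0.743% lower.

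**Figure D3:**
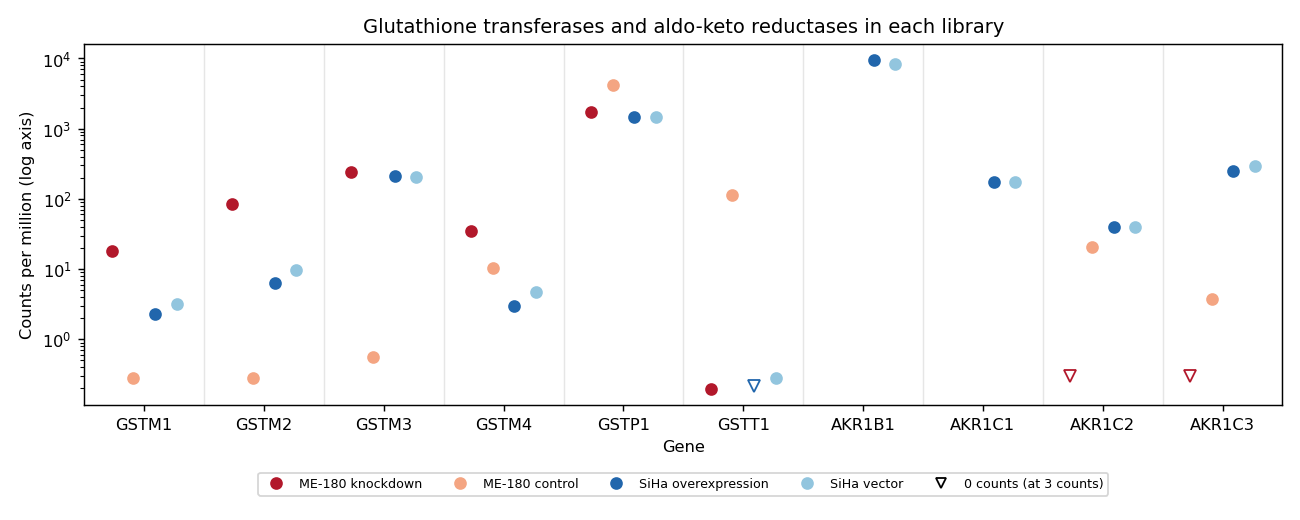
Level in CPM (log axis) of glutathione transferases and aldo-keto reductases in the 4 libraries, with open triangles for 0 counts drawn at 3 counts; AKR1B1 and AKR1C1 have points for SiHa only. GSTM1 to GSTM4 are higher in the ME-180 library labelled knockdown than in its control, and GSTT1, AKR1C2 and AKR1C3 are lower.

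Outside the mu class, more glutathione transferases were called lower than higher. The single higher call there, MGST1, rested on 16 counts in the library labelled knockdown against 2 in the control, a ratio of 8.60 (2.02 to 77.1). Of the 14 transferases with at least 1 CPM in an ME-180 library, 5 were called higher, the 4 mu-class genes and MGST1, and 4 lower, where 28.2% of all genes were higher and 20.6% lower. Under TMM scaling GSTO2 and MGST2 were also lower. The median log2 ratio of the 14 was 0.01, also without the pseudocount and with the gene at 0 set to 3 counts. Without GSTM3, 4 of 13 were higher and 4 lower, with a median of -0.175. GSTP1, the pi-class enzyme, had 1740 CPM in the library labelled knockdown against 4133 CPM, a ratio of 0.421 (0.414 to 0.428). The theta-class gene GSTT1 had 2 counts against 1235, a ratio of 0.00174 (0.000211 to 0.00630). GSTT2 had 0 counts against 169 and GSTT2B 2 against 142, and these copies are near-identical. GSTM1 and GSTT1 are known as genes that many human genomes lack. GSTO1 (ratio 1.53), GSTK1 (0.884) and GSTCD (1.15) did not reach 2-fold. In SiHa 0 of 15 transferases were called, and GSTT1 had 0 counts with p63 and 4 with the vector.

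Most other NRF2 targets with a row were lower, as NQO1 was. Of 42 listed targets, 23 had a row in ME-180, all at 1 CPM or more; 14 were called lower and 2 higher, with a median of -1.36 (-1.39 without the pseudocount and with genes at 0 set to 3 counts). Without the 4 genes of this account, 11 of 19 were lower and 1 higher, with a median of -1.24. The share of all genes called lower was 20.6%, and genes without a row, among them HMOX1, GCLM and SLC7A11, cannot be read as not expressed. CYP4F11, a cytochrome P450, had 0 counts in the library labelled knockdown and 748 in the control, and UGT1A6, a glucuronosyltransferase, had 0 against 742. With their counts of 0 set to 3 they were 232-fold and 230-fold lower, with lower 95% limits of 188 and 187. GCLC, the catalytic subunit of the first step of glutathione synthesis, had 53.9 CPM against 424 CPM, a ratio of 0.127 (0.116 to 0.139). The targets TXNRD1, TXN, PRDX1, TKT and FTL did not reach 2-fold. EPHX1, an epoxide hydrolase, was the other gene called higher, with a ratio of 2.13 (1.92 to 2.36), and its call was lost under TMM scaling (log2 ratio 0.80), which leaves GSTM3 as the single higher gene of the list. In SiHa 34 of the 42 had a row, 31 of them at 1 CPM or more, and 0 were called, with a median of -0.01.

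Of 8 NRF2 pathway regulators with a row in ME-180, 3 were lower and 1 higher, against 20.6% and 28.2% of all genes, with a median of 0.07. NFE2L2 itself had 530 counts in the library labelled knockdown and 1394 in the control, a ratio of 0.409 (0.369 to 0.452). SQSTM1, an autophagy receptor that binds KEAP1 and is itself a target, had a ratio of 0.381 (0.358 to 0.405). MAFF, a small partner protein of NRF2, had 22 counts against 68. CUL3 (1.28), BTRC (1.65), DPP3 (0.904) and BACH1 (1.23), a repressor that competes with NRF2, did not reach 2-fold. BACH2, a relative of BACH1, had 196 counts against 10, a ratio of 21.1 (11.2 to 44.7). KEAP1 has no row in the tables used here. In SiHa 0 of 10 regulators were called, with NFE2L2 at 0.847 (0.789 to 0.909).

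Of 8 genes of the AHR pathway with a row in ME-180, 3 were lower and 2 higher, against 20.6% and 28.2% of all genes, and without NQO1 and ALDH3A1 1 of 6 was lower. UGT1A6 was that gene, and AHRR, the repressor of the receptor, was higher with a ratio of 2.77 (2.16 to 3.59). ARNT had a ratio of 2.15 (1.88 to 2.47), a call lost under TMM scaling (log2 ratio 0.81). CYP1A1, the classical target of the receptor, had 52 counts in the library labelled knockdown and 23 in the control, a ratio of 2.43 (1.46 to 4.16) that was under the 2-fold rule once the pseudocount was added (log2 ratio 0.98). CYP1B1 had 89 counts against 145, a ratio of 0.660 (0.501 to 0.865), and was not called. AHR has no row in ME-180. In SiHa AHR had 878 counts with p63 and 805 with the vector, and 0 of 9 genes of the list were called.

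**Figure D4:**
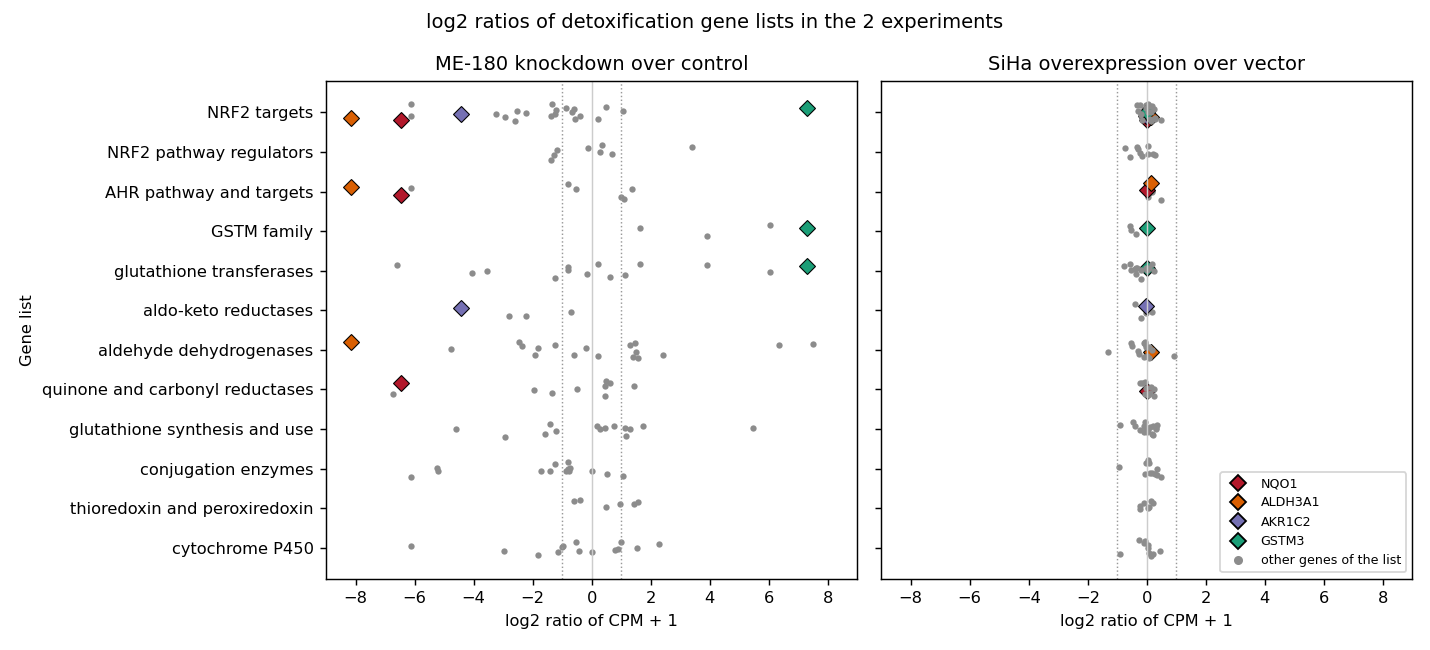
log2 ratio of CPM + 1 for genes of 12 lists with at least 1 CPM in a library, in ME-180 (left) and SiHa (right), with dotted lines at 2-fold and diamonds for the 4 genes; the vertical scatter within a list has no meaning. In ME-180 the NRF2 targets lie mostly left of 0 and the GSTM family right of it, and in SiHa nearly all points lie within 2-fold.

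The aldehyde dehydrogenases held genes called higher and genes called lower in ME-180. Of 18 with at least 1 CPM, 8 were higher and 7 lower, against 28.2% and 20.6% of all genes, with a median of 0.01 (-0.02 without the pseudocount and with the gene at 0 set to 3 counts). Without ALDH3A1, 8 of 17 were higher and 6 lower, with a median of 0.21. ALDH1A3, which makes retinoic acid in epithelia, had 33.1 CPM in the library labelled knockdown against 938 CPM, a ratio of 0.0352 (0.0315 to 0.0393). ALDH1A2, another enzyme of retinoic acid synthesis, had 878 counts against 1, with a ratio of 944 (169 to 37337), and ALDH1L2, a mitochondrial folate enzyme, 2501 against 4. ALDH18A1, an enzyme of proline synthesis, had a ratio of 5.37 (5.00 to 5.78). In SiHa ALDH1L2 was the single dehydrogenase called, lower with a ratio of 0.354 (0.258 to 0.480), and ALDH1A3 was at 1.91 (1.80 to 2.02), not called.

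Of 4 aldo-keto reductases with at least 1 CPM in ME-180, AKR1C2, AKR1C3 and AKR1E2 were lower and AKR1A1 had a ratio of 0.616. Without AKR1C2, 2 of 3 were lower in ME-180, where 20.6% of all genes were. AKR1C1 and AKR1B1 have no row there. In SiHa AKR1C1 had 172 CPM with p63 and 175 CPM with the vector, AKR1C3 249.7 CPM against 289 CPM, and AKR1B1, the aldose reductase, 9386 CPM against 8377 CPM. Among quinone and carbonyl reductases, 4 of 10 were lower and 1 higher in ME-180, against 20.6% and 28.2% of all genes. Without NQO1, 3 of 9 were lower and 1 higher, with a median log2 ratio of 0.44. PTGR1, which also reduces lipid aldehydes and prostaglandins, had 2 counts against 1377, a log2 ratio of -6.74 and the lowest of the list, with NQO1 next. CRYZ had a ratio of 0.219 and CBR3 0.376.

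For the lists that follow, 28.2% of all genes were called higher and 20.6% lower with table totals. Under TMM scaling the background itself moved, with 1496 of 6795 genes called higher and 1657 lower. Genes of glutathione synthesis and use were called higher in 5 and lower in 5 of 14, and under TMM scaling 3 were higher, without GLRX3 and GPX8. CHAC1, which breaks glutathione down, had 672 counts in the library labelled knockdown against 6, a ratio of 120.4 (55.1 to 329), and OPLAH, which recycles its product 5-oxoproline, had 0 against 254. GLRX, a glutaredoxin, had a ratio of 0.321 (0.273 to 0.377). Conjugation enzymes were lower in 6 of 14 and higher in 1, EPHX1, and under TMM scaling 10 were lower and 0 higher. UGT1A10 and UGT1A1 had 0 counts against 402 and 388, but these share exons with UGT1A6 and their counts are not independent. The thioredoxin and peroxiredoxin list had 0 of 6 genes lower and 2 higher, SOD1 with a ratio of 2.98 (2.89 to 3.06) and SOD2 with 2.73 (2.44 to 3.05), both superoxide dismutases. Of the cytochromes P450, 5 of 14 were lower and 2 higher, with CYP51A1, of sterol synthesis, at a ratio of 4.89 (4.44 to 5.41). Among efflux transporters 3 of 9 were higher and 2 lower, ABCC6 with a ratio of 14.6 (8.89 to 25.4) and ABCC5 with 0.192 (0.173 to 0.213). Of the NADPH supply genes, ME2 was called higher, a call lost under TMM scaling (log2 ratio 0.90). Both metallothionein genes at 1 CPM or more were lower, but from low levels. The list summed to 6.39 CPM in the control and 0 CPM in the library labelled knockdown. With a pseudocount of 5 neither gene was called, and neither reached a floor of 5 CPM. In SiHa 0 genes of the lists from the quinone and carbonyl reductases onward were called, and no metallothionein reached 1 CPM.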

How the data were processed

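RNA was extracted with TRIzol, per the labels' protocols. The submitters' processing notes name TopHat, Cufflinks, DESeq2 and hg19; which tool counted the reads, and with what strand setting, is not given in the sources used here. Raw counts per RefSeq transcript were deposited by the authors, 1 table per line, and a read can enter several overlapping transcripts or antisense genes. The log2 fold changes and p-values are the authors' deposited columns; the p-values rest on 1 library per group and are not printed.

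Counts were scaled to a table total of 1000000 (CPM), and the transcript with the highest summed CPM stood for each gene. Log2 ratios used a pseudocount of 1 CPM. No test was made, for want of replicates. Intervals are exact (Poisson, conditional binomial; SciPy 1.17.1). Alternative scalings used edgeR 4.0.16 and DESeq2 1.42.0. Calls and intervals were tried on simulated counts with counting error only and with changes larger than 2-fold. That run checks the code and says nothing of variation between cultures.

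The 4 genes and 19 gene lists were chosen with earlier results of these data known. Named were these genes, TP63, all measured GSTM and AKR1C genes and NRF2 and AHR regulators, up to 5 genes per list with the largest ME-180 ratio at 100 or more counts, and the 3 closest profiles per gene; others were named after their values were seen, and some genes are not reported here. The peak table was not used, for want of an annotation of its build. Dates in place of names (32 rows in ME-180, 31 in SiHa) were resolved by RefSeq accession.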

Additional observations from a re-analysis of the deposited data

How the results depend on the processing

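The 4 genes kept their call in 24 of 24 alternative settings in ME-180 and 24 of 24 in SiHa. These were other pseudocounts, TMM or DESeq2 scaling, summed transcripts and, chosen after seeing the data, totals over transcripts in both tables. The ME-180 log2 ratios moved most with the pseudocount. With a pseudocount of 5 they were -5.84 for NQO1, -7.07 for ALDH3A1, -2.36 for AKR1C2 and 5.49 for GSTM3, and with 0.1 AKR1C2 was at -7.70. In SiHa NQO1 was at 0.03 under both TMM and DESeq2 scaling. Counts of all genes called in ME-180, 1914 higher and 1400 lower, changed to 1272 and 918 under a pseudocount of 5, and 598 and 671 at a 4-fold threshold. In SiHa 40 higher and 52 lower changed to 113 and 227 under a pseudocount of 0.1, to 14 and 6 under 5, to 24 and 28 at a floor of 5 CPM, and to 4 and 2 at a 4-fold threshold. Among NRF2 targets in ME-180 the lower calls ranged between 10 and 15, and the 2 higher became 1 under TMM scaling, DESeq2 scaling and the 4-fold threshold. With a pseudocount of 0.1, the NRF2 regulators, glutathione genes, conjugation enzymes and cytochromes P450 each had 1 lower call in SiHa, where the other settings gave 0. The level of GSTM3 in the library labelled knockdown over the SiHa vector library, a log2 ratio of 0.24, reversed to -0.29 over the shared transcripts. The cause of these changes was not tested. No paired analysis was possible because each group has 1 library. For the same reason no library could be left out. Peak windows were not run, for want of gene starts in the build of the peaks. In the library labelled knockdown the floor of 3 counts is 0.299 CPM, and the 95% upper limit of a count of 0 is 0.367 CPM.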
